A study of Mus musculus with 6 samples.

Results

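The 4 Hox clusters of the mouse genome were examined as 4 windows of accessible chromatin in the adult dentate gyrus, the part of the hippocampus whose principal neurons are the granule cells. The windows, on mm9, were chr6:52105000-52212000 for Hoxa (107 kb), chr11:96050000-96235000 for Hoxb (185 kb), chr15:102750000-102870000 for Hoxc (120 kb) and chr2:74490000-74605000 for Hoxd (115 kb), 527 kb in all. They stand for 38 member genes, 10 in Hoxa, 10 in Hoxb, 9 in Hoxc and 9 in Hoxd. A member region was any called ATAC-seq peak overlapping a window by at least 1 bp, with touching peaks of the 6 libraries merged. The windows held 2 of the 68364 merged regions of chromosomes 1 to 19, and 4 of the 186041 peaks called there over the 6 libraries.

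Each library came from the microdissected dentate gyrus of a single mouse 8 weeks old, after infection with an adeno-associated virus (AAV), a vector that carries a gene into cells. In 3 animals the virus carried EYFP, a yellow fluorescent protein used as the control, and in 3 it carried cFos, an AP-1 transcription factor that neurons make when activated. The labels do not say whether the cFos animals also received EYFP, which promoter drove either gene or which cells were infected, and the strain label runs from C57BL/6 in EYFP replicate 1 to C57BL/11 in cFos replicate 3, a different number for each animal. Microdissected tissue mixes cell types, and the tissue label could not be checked against marker genes, because no annotation of mm9 was used here. ATAC-seq marks open DNA by the insertion of adapters with the transposase Tn5, and the data analysed were 1 list of called peaks per library. The lists held 28818, 42853 and 31916 peaks on chromosomes 1 to 19 in EYFP replicates 1 to 3, and 25818, 23088 and 33548 in cFos replicates 1 to 3. The depth in reads was unknown, so a window without a peak is one where none was called, which does not establish that its DNA was closed.

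Hox genes encode transcription factors with a homeodomain, the part that binds DNA, and they give positions along the head-to-tail axis of the embryo their identity. Within a cluster the genes lie in the order in which they act along the body, with the paralog groups of low number acting toward the hindbrain and those of high number toward the tail, the limb ends and the genital tract. The forebrain, which includes the hippocampus, forms in front of the Hox domains. Where the clusters are silent they are a textbook target of Polycomb complexes, which deposit methylation on lysine 27 of histone H3 over whole clusters. These are statements of background, and neither histone marks nor transcripts were measured here.

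Both Hoxc and Hoxd had no called peak in any of the 6 libraries. In bulk tissue, a site open in few cells and a site open in none cannot be told apart. These windows stand for 18 of the 38 members. In Hoxc they include Hoxc4, Hoxc5 and Hoxc6, which act at neck and forelimb levels, Hoxc8 and Hoxc9, which specify thoracic identity and, for Hoxc9, thoracic motor neurons, Hoxc10 and Hoxc11 of the lumbar region, Hoxc12, and Hoxc13, which is needed for hair and nails. In Hoxd they include Hoxd1, Hoxd3 and Hoxd4 of the hindbrain and neck end, Hoxd8, Hoxd9 and Hoxd10, the last a lumbar motor neuron gene, and Hoxd11, Hoxd12 and Hoxd13, which pattern the forearm and digits. Of the 20102 tiles of the Hoxc width laid end to end along chromosomes 1 to 19, 13.9% held no region called in any library, and of the 20976 tiles of the Hoxd width 14.8% did. An empty window of this size was therefore not rare by itself. The gene content of the tiles was not compared, and tiles over unassembled or repeated sequence were not removed.

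Hoxa and Hoxb each held 1 weak region. The Hoxa region, chr6:52171475-52172058 (584 bp, mm9), was called in EYFP replicate 1 with a score of 79.39, in EYFP replicate 2 with 55.29 and in cFos replicate 3 with 58.79. It was not called in EYFP replicate 3 or in cFos replicates 1 and 2, so calls and missing calls occurred in both groups. The score is the authors' value for a peak, with no normalization between libraries stated, and the lowest in each list was 50. It was read as a rank within a list, apart from 1 alternative that applied the same minimum score to every list. These 3 scores lay at percentiles 40.9, 9.52 and 18.0 of the chromosome 1 to 19 peaks of their own lists. The Hoxb region, chr11:96140049-96140400 (352 bp, mm9), was called in EYFP replicate 2 alone, the longest list, with a score of 51.06 at percentile 2.08. No peak in any window reached the median score of its list, and in the 3 libraries with a Hox peak the median percentile of those peaks lay below 50 (mean difference -28.4 points, two-sided exact sign-flip permutation p = 0.25, the smallest possible with 3 libraries).

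Position along the cluster could be read only as distance. The Hoxa region began 66.5 kb from the low-coordinate edge of its window, the edge nearest Hoxa2 and Hoxa3, and ended 39.9 kb from the edge nearest Hoxa13. The Hoxb region lay close to the middle of its window, 94.6 kb from the edge nearest Hoxb1 and Hoxb2. Both regions lay on the high-number side of the midpoint of their window, with 3 libraries calling Hoxa there and 1 calling Hoxb. On the low-number side of both windows no library had a peak. The difference between the sides did not pass the two-sided exact sign-flip permutation test over the 6 libraries (Hoxa p = 0.25, Hoxb p = 1, both 1 after Benjamini-Hochberg adjustment over the 4 clusters). That test could not have passed, because a library without a peak adds no difference. These are the smallest p-values possible with 3 libraries calling Hoxa and 1 calling Hoxb, so the test decides nothing about the sides. Without an mm9 annotation neither region could be tied to a gene. The other members of these clusters are Hoxa4 to Hoxa7, Hoxa9, which acts in blood stem cells, Hoxa10 and Hoxa11 of the uterus and limb, and Hoxb3 to Hoxb9, among them Hoxb4 of blood stem cells. Hoxb1, in the same cluster, marks rhombomere 4 of the embryonic hindbrain, and Hoxb13 acts in the prostate.

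Tiles with at most 1 region made up 33.1% of the 22546 tiles of the Hoxa width and 17.6% of the 13034 of the Hoxb width. The Hoxa window was thus an ordinary sparse stretch by the number of regions alone. Neither of the 2 Hox regions was called in all 6 libraries, against 16.6% of all regions on chromosomes 1 to 19. Neither was called in 3 of 3 EYFP and 0 of 3 cFos libraries (1.96% of all regions) nor in 3 of 3 cFos and 0 of 3 EYFP libraries (0.458%). With 2 regions these shares cannot be told from the background. In the flanks, 4 of the 10 merged regions were called in all 6 libraries. None of the 4 Hox peaks lay in a region common to the 6 libraries. In the 3 libraries with a Hox peak the share of peaks in common regions was on average 34.2 percentage points higher over chromosomes 1 to 19 (two-sided exact sign-flip permutation p = 0.25, the smallest possible with 3 libraries). With the Hox share at 0 in each of these libraries, that outcome was fixed, and the test adds nothing to the count.

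**Figure D1:**
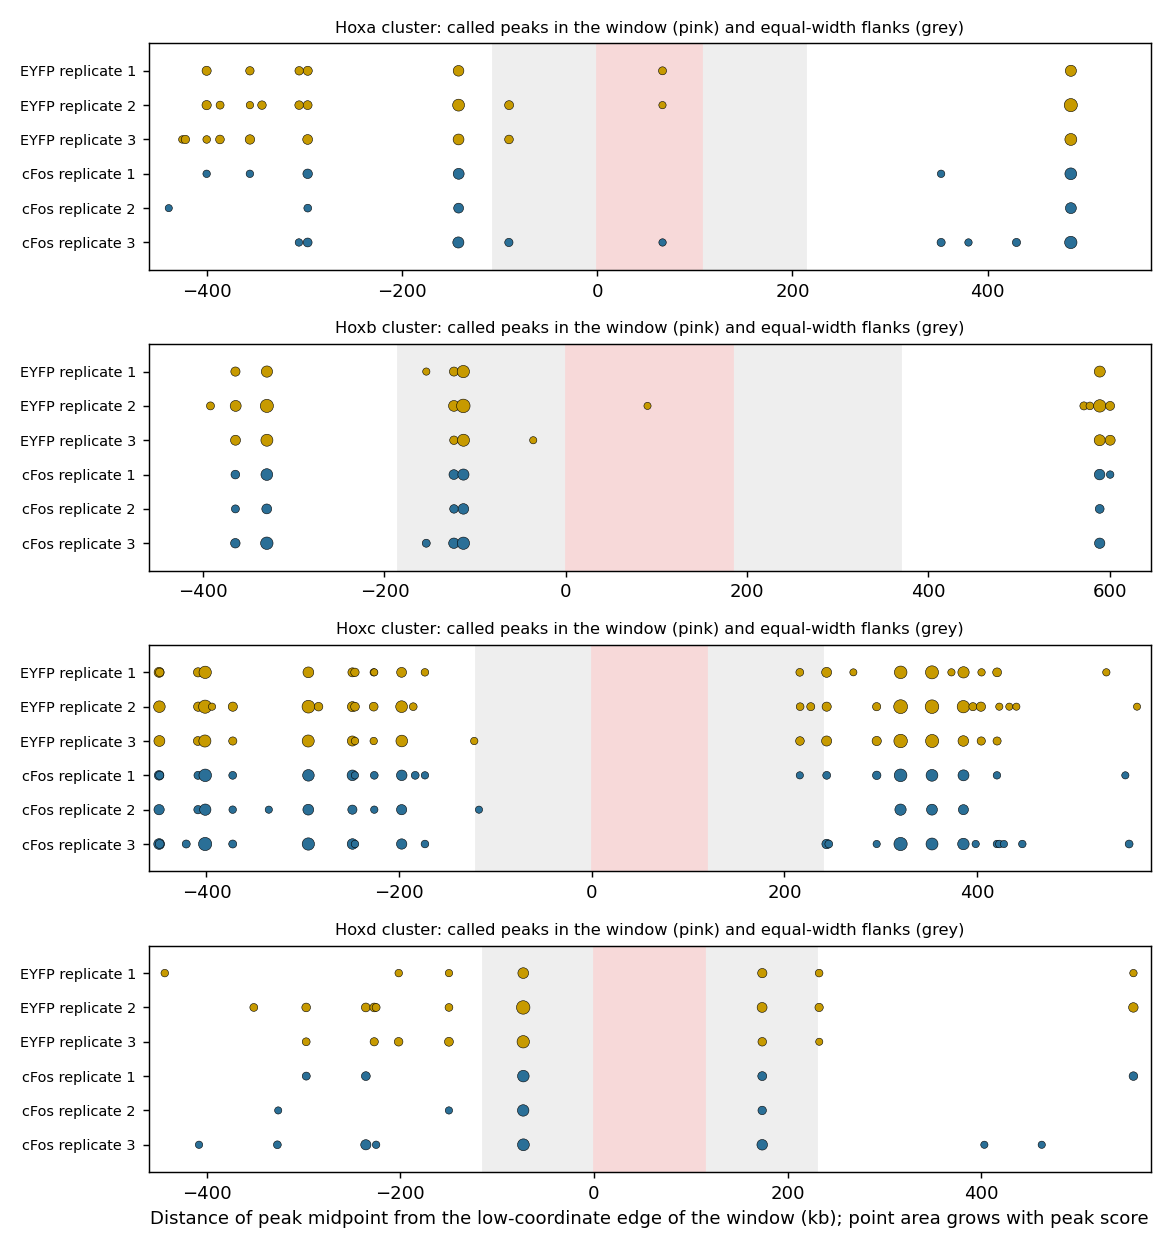
Called peaks at the 4 Hox clusters in each library. The horizontal axis is the distance of the peak midpoint from the low-coordinate edge of the window in kb, each row is 1 library, and points grow with the authors' score. Pink marks the window and grey the flanks of equal width. The Hoxc and Hoxd windows have no point, Hoxa has 3 and Hoxb has 1, while the columns of points shared by all libraries stand outside the windows.

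Taken as 1 set, the 4 windows held fewer peaks than their flanks in 6 of 6 libraries. The flanks, 1 window width on each side, held 6, 7 and 7 peaks in EYFP replicates 1 to 3 and 5, 5 and 6 in cFos replicates 1 to 3. Per window width that is 3, 3.5 and 3.5 in EYFP and 2.5, 2.5 and 3 in cFos libraries. The windows themselves held 1, 2 and 0 in EYFP and 0, 0 and 1 in cFos libraries. The log2 ratio of window to flank, with 0.5 peak added to both, was -1.88 ± 0.95 (SD, n = 6) and ran from -3.0 to -0.68. The two-sided exact sign-flip permutation test gave p = 0.03125, the smallest that 6 libraries allow. The same windows are read in every library, so the test covers the spread between animals and not the choice of windows. With every window shortened by 10 kb on both sides, which moves the flanks inward, p was 0.0625.

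The windows were also sparser than chromosomes 1 to 19 as a whole. At the density of those chromosomes in each library, 527 kb would hold 6.29, 9.36 and 6.97 peaks in EYFP replicates 1 to 3 and 5.64, 5.04 and 7.33 in cFos replicates 1 to 3. The log2 ratio, with 0.5 peak added, was -2.92 ± 0.83 (SD, n = 6), below 0 in 6 of 6 libraries (two-sided exact sign-flip permutation p = 0.03125). Summed over the 6 libraries, 4 peaks stood beside 40.6 at the density of chromosomes 1 to 19. All 6 values are readings of the same 4 windows. Peaks covered between 0 and 0.138% of the windows and between 0.547% and 1.23% of chromosomes 1 to 19.

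**Figure D2:**
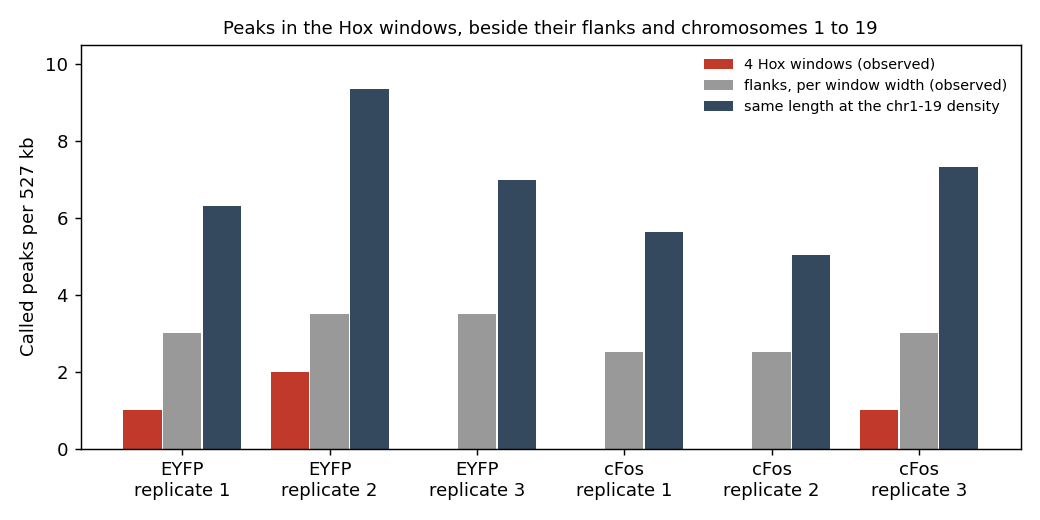
Called peaks per 527 kb in each library. Red bars are the counts in the 4 Hox windows, grey bars the counts in their flanks per window width, and dark bars the number that the density of chromosomes 1 to 19 gives for the same length. In all 6 libraries the red value, from 0 to 2, is below the grey value, from 2.5 to 3.5, and the grey below the dark.

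The clusters differed in how they stood to their flanks. Hoxd had 0 peaks in the window and 2 in the flanks of every library (log2 ratio -1.58, two-sided exact sign-flip permutation p = 0.03125, Benjamini-Hochberg adjusted 0.0833). Hoxb had 15 flank peaks over the 6 libraries, from 2 to 3 per library and all on the low-coordinate side, which is the side of Hoxb13 (log2 ratio -1.53, p = 0.0625, adjusted 0.0833, exact sign-flip permutation). Hoxc had 6 flank peaks, from 0 to 2 per library (log2 ratio -0.93, p = 0.0625, adjusted 0.0833, exact sign-flip permutation). Hoxa went the other way in value, with 3 peaks in the window and 3 in both flanks together (log2 ratio 0.29, p = 0.5, adjusted 0.5, exact sign-flip permutation), and its sign turned on equal-length lists and with a stricter score. No cluster passed alone after adjustment over the 4, and the difference between clusters was not tested. With 6 libraries the smallest p of this permutation test is 0.03125. A cluster that reached it alone, as Hoxd did, could not fall below 0.05 after the adjustment, however uniform its counts. The Hoxc value was -2.28 (p = 0.03125) with flanks of 2 widths and 0 (p = 1) with shortened windows, by the same exact permutation test.

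Each cluster lay within or beside a long stretch without calls. Gaps between neighbouring merged regions on chromosomes 1 to 19 had a median of 17.7 kb and a 99th percentile of 253.6 kb over 68345 gaps. At Hoxb the longest gap measured 481.0 kb, chr11:96140401-96621362, and 0.215% of all gaps were at least as long. It ran from the weak Hoxb region out of the cluster at the Hoxb1 end, the side on which Skap1 is the next coding gene in the gene table. At Hoxc the gap spanned the whole window and measured 332.6 kb, chr15:102633102-102965660 (0.528% at least as long). At Hoxa it measured 285.1 kb, chr6:52172059-52457172 (0.74%), leaving the cluster at the Hoxa13 end, the side on which Evx1, itself a homeobox gene, is the next coding gene. At Hoxd it measured 245.8 kb, chr2:74417648-74663427 (1.08%), and again spanned the whole window. These shares are not comparable with the shares of tiles given above. The gaps were longer than the tiles, and the tiles counted for Hoxa and Hoxb could hold 1 region. Long gaps also cover more of the genome than their number shows.

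**Figure D3:**
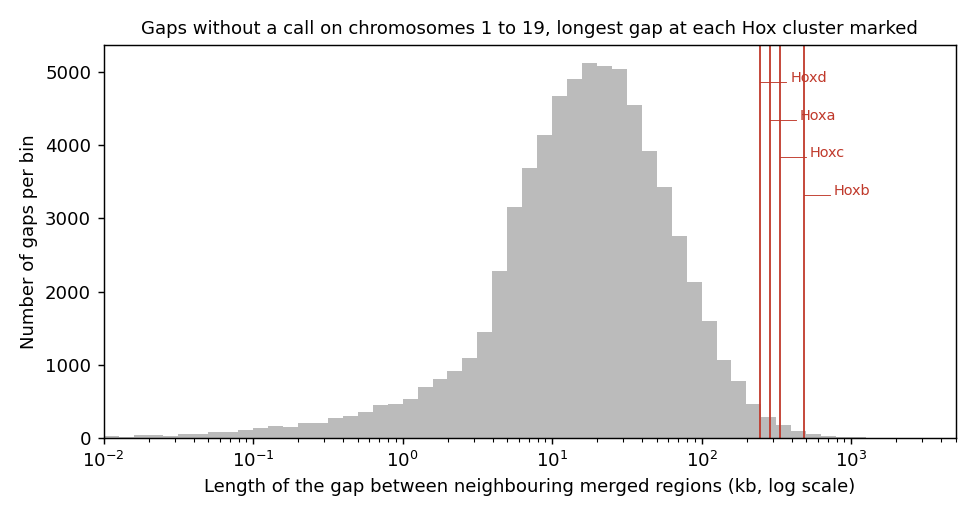
Lengths of the gaps between neighbouring merged regions on chromosomes 1 to 19, on a log axis in kb, as the number of gaps per bin. Red lines mark the longest gap at each cluster, from 245.8 kb at Hoxd to 481.0 kb at Hoxb, all in the upper tail of the distribution, whose median is 17.7 kb.

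The borders of the Hoxd gap were the same in every library. On the low side, beyond Hoxd13, the nearest peak lay between 72.4 and 72.8 kb from the window in all 6 libraries, in the region chr2:74416554-74417647. It scored 257.04, 635.22 and 454.49 in EYFP replicates 1 to 3 and 351.48, 335.2 and 380.44 in cFos replicates 1 to 3, at percentiles from 87.4 to 97.3 of the lists. On the high side, beyond Hoxd1, the nearest peak lay between 58.4 and 58.6 kb away in all 6, in chr2:74663428-74664278. Its scores were 143.66, 187.14 and 104.23 in EYFP and 123.96, 99.27 and 243.33 in cFos libraries, at percentiles from 56.3 to 84.6, lower than on the other side. The stretch free of peaks around Hoxd was thus 245.9 to 246.4 kb long in each library taken alone. In the gene table, Evx2 is the coding gene next to Hoxd13 and Mtx2 the one next to Hoxd1.

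The other borders moved with peaks that were not called in every library. These peaks ran from percentile 4.71 (EYFP replicate 3, below Hoxb) to 73.8 (cFos replicate 3, above Hoxc) of their lists. The nearest region called in all 6 libraries lay 142 kb below and 378 kb above Hoxa, 112 kb below and 404 kb above Hoxb, and 197 kb below and 200 kb above Hoxc. Around Hoxc, the stretch without peaks in a single library ran from 337.5 kb in EYFP replicate 3 to 436.6 kb in cFos replicate 2. Around Hoxb it ran from 624.2 to 701.3 kb in the 5 libraries without a Hoxb peak, and around Hoxa from 494.0 to 627.1 kb in the 3 libraries without a Hoxa peak. The border regions called in all 6 libraries differed in rank. Those around Hoxc, chr15:102552054-102553308 and chr15:103069508-103071818, stood at percentiles from 78.7 to 91.9 and from 92.2 to 98.5. Around Hoxa the percentiles ran from 81.2 to 91.2 below and from 90.1 to 96.5 above. Around Hoxb they ran from 87.3 to 97.5 below and from 65.3 to 93.7 above.

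Outside the windows the density of peaks was low in the first 100 kb and did not change steadily beyond it. In the first 100 kb beyond the 8 window edges it was 4.17 ± 1.29 peaks per Mb (SD, n = 6), which is 0.324 times the mean of chromosomes 1 to 19, 12.8 per Mb. From 100 to 200 kb it was 12.1 ± 1.88 per Mb (0.940 times), from 200 to 300 kb 14.6 ± 3.32, from 300 to 400 kb 11.3 ± 5.70, and from 400 to 500 kb 25 ± 5.65 per Mb (1.95 times). In the windows it was 1.27 ± 1.55 per Mb (SD, n = 6). In every library the density from 0 to 100 kb was below that from 100 to 200 kb, the ranges being 2.50 to 6.25 and 8.75 to 13.8 per Mb. The 8 sides were pooled, and in every library most of the peaks from 200 to 300 kb lay beside Hoxc. Depending on the library, between 3 and 6 of the 8 sides held a peak at that distance. Above Hoxb no library had a peak within 386 kb of the window. The pooled values therefore do not describe each cluster. The distances were chosen after the data were seen, and no test was made of them.

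**Figure D4:**
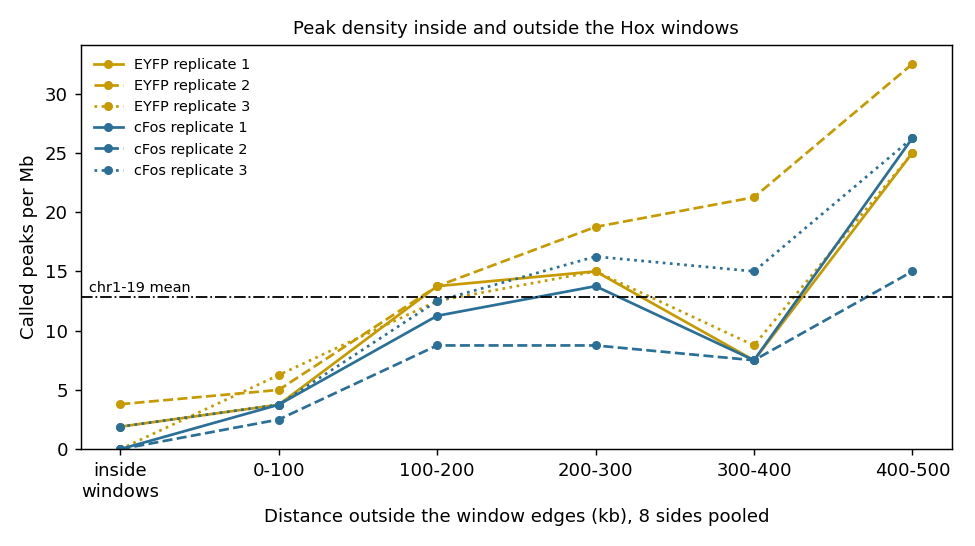
Called peaks per Mb inside the Hox windows and in steps of 100 kb outside their edges, with the 8 sides pooled. Each line is 1 library (gold for EYFP, blue for cFos) and the dash-dotted line is the mean of chromosomes 1 to 19, 12.8 per Mb. All 6 lines lie under that mean inside the windows and in the first 100 kb.

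No difference between the EYFP and the cFos animals was detected at the Hox clusters. The windows held 1, 2 and 0 peaks in EYFP replicates 1 to 3, or 1 ± 1 (SD, n = 3), and 0, 0 and 1 in cFos replicates 1 to 3, or 0.333 ± 0.577 (SD, n = 3). The groups overlapped (difference -0.667, two-sided exact permutation p = 0.7, with 0.1 the smallest possible for 3 against 3). As a share of the peaks of a list the difference was -0.00172 percentage points, and in covered sequence -0.338 kb, both with a two-sided exact permutation p of 0.4. Peaks were narrower in the cFos lists as a whole, with median widths of 461, 478 and 437 bp against 569, 562 and 553 bp in EYFP, and the part of this in the covered sequence was not tested. By cluster the difference was -0.333 peaks for Hoxa, -0.333 for Hoxb and 0 for Hoxc and Hoxd, each with p = 1 by the same exact permutation test. Hoxb had a peak in 1 library, and Hoxc and Hoxd had none, so for these clusters that p was fixed and the test decides nothing. EYFP replicate 2 decided much of the count, with 2 of the 4 peaks and the longest list. Without it 2 peaks remained. The difference in peak number was then -0.167, that in share -0.000741 percentage points and that in covered sequence -0.192 kb. Without EYFP replicate 3, which had no Hox peak, they were -1.17 peaks, -0.00307 percentage points and -0.557 kb. Without cFos replicate 3, which held the peak of its group, the difference in share was -0.00271 percentage points. These differences for the 4 windows together had the same sign, but all were readings of the same 4 peaks. None passed the exact permutation test. On lists cut to the 23088 highest-scoring peaks of each library 1 peak remained, the Hoxa peak of EYFP replicate 1. Medians of the score percentile could not be compared between groups, as only 1 cFos library had a Hox peak.

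The sequence before the starts of the Hoxd members was read to show what lies inside an uncalled window, since CG dinucleotides are dense in the promoters of many active genes and in Polycomb targets. The sequences come from RefSeq on GRCm38.p6, another build than that of the peaks, so they are tied to the window only through the cluster. All 9 Hoxd members matched, with 10 starts. In the 250 bases before a start they held between 2 and 31 CG dinucleotides (CG reads the same on both strands), with a median of 12.5, against a median of 6 over the 32841 starts of all genes in the table. Of the 10 starts, 4 had over 50% G and C and an observed over expected CG ratio above 0.6, or 40.0%, against 30.8% of all starts. For Hoxa, 9 of 10 members matched with 10 starts, of which 6 met those limits. For Hoxb and Hoxc together only 4 of 19 members matched, under 80%, so a comparison for them or for the whole family is void. The Hoxd starts richest and poorest in CG are printed below in lower case with each CG in capitals, 5′ to 3′ on the plus strand and ending at the base before the start. They are Hoxd13 (chr2:74667975-74668224, 31 CG, as many or more in 5.19% of all starts) and the upstream start of Hoxd11 (chr2:74679308-74679557, 2 CG, as few or fewer in 29.0%; its other start has 20), both in GRCm38.p6 coordinates, which cannot be compared with the mm9 positions of the peaks.
Hoxd13: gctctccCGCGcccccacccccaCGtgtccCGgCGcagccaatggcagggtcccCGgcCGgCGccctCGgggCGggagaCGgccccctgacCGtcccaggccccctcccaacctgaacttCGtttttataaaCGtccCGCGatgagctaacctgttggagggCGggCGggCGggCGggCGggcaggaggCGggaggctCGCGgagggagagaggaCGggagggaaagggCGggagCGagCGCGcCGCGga
Hoxd11: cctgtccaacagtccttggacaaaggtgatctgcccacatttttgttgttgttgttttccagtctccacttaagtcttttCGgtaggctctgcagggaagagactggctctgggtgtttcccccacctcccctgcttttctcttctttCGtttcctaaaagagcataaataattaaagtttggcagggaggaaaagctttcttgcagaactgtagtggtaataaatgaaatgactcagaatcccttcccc

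The Hoxd13 start shows closely spaced CG dinucleotides, and the Hoxd11 start, in the same window, shows almost none. Both lie in a cluster where no library had a peak, so the absence of calls at Hoxd covered starts of both kinds. No transcript was measured in these samples, and the match of letters is a description only.

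**Figure D5:**
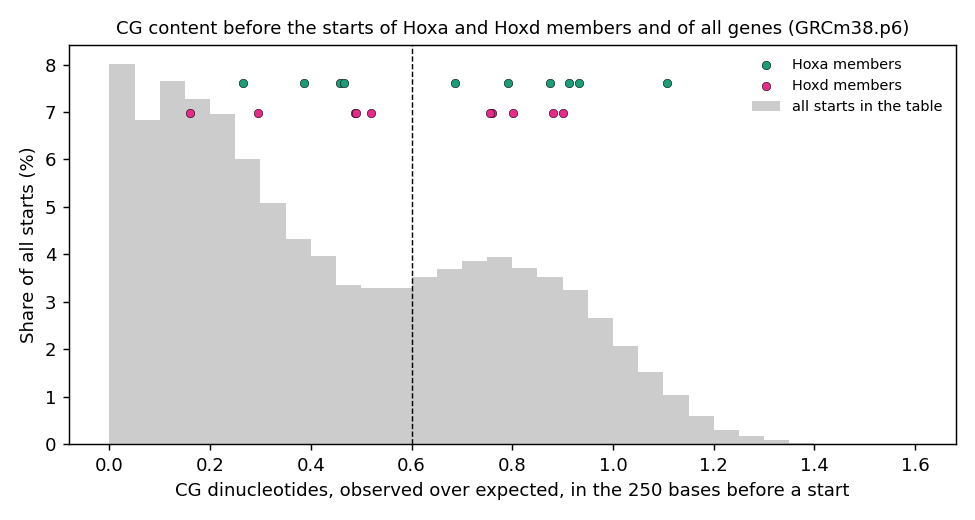
Observed over expected CG dinucleotides in the 250 bases before a start. Grey bars give the share of all 32841 starts in the RefSeq table (GRCm38.p6) in percent, points are the starts of Hoxa and Hoxd members, whose height has no meaning, and the dashed line marks 0.6. The members lie on both sides of the line.

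The clusters also carry microRNA genes between the members. The gene table places Mir196b in Hoxa, Mir196a-1 and Mir10a in Hoxb, Mir196a-2 and Mir615 in Hoxc, and Mir10b in Hoxd, 6 in all, and no coding gene other than Hox members lies between the outermost members of any cluster. The miR-10 and miR-196 families are known to act on Hox transcripts. Their mature 5p sequences are given 5′ to 3′ with the seed, bases 2 to 8, in capitals, because family members from different clusters share it.
mmu-miR-10a-5p: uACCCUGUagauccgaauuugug
mmu-miR-10b-5p: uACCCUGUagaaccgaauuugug
mmu-miR-196a-5p: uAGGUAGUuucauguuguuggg
mmu-miR-196b-5p: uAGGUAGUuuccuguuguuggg

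The seed ACCCUGU is shared by the products of Hoxb and Hoxd, and AGGUAGU by those of Hoxa, Hoxb and Hoxc. In Hoxc and Hoxd these genes lie in windows without a called peak in any library, and in Hoxa and Hoxb the 2 weak regions could not be placed relative to them.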

How the data were processed

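ATAC-seq peak lists of 3 EYFP and 3 cFos libraries, 1 animal each, were analysed, with groups and replicate numbers from the sample titles. The submitters' processing notes name Bowtie2 and the build mm9. The deposited score of each peak, in the fifth of 5 columns, is the authors' own, and no normalization between libraries is stated. Not given in the sources used here are its meaning, any shift for Tn5, and the version, threshold and control of the peak caller, which the names of the peaks show to be MACS. Peak names in the lists number on without a break (0 breaks in 6 lists), so no sign was found of peaks removed after naming. Peaks dropped before naming, or below the lowest score of 50, would leave no break.

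The members, windows and lists were chosen with earlier results of these data known. Flanks were 1 window width on each side. Densities used the span from the first to the last called base of each chromosome. Percentiles are ranks within a list. Named regions followed a rule covering the strongest common region per cluster, the widest, and group-only regions. No Hox region was common or group-only, so the widest regions were named. The border regions and gaps outside the windows were named after their values were seen. Group means were compared by exact permutation over 20 assignments, and windows with backgrounds by exact sign-flip permutation over 64 sign choices. The counting was tested on simulated data. Planned gene lists and marker genes were not analysed here, for want of an mm9 annotation. Replicate numbers were not treated as pairs in the main tests. Deviations of same-numbered libraries correlated at -0.0150, -0.00736 and 0.00287, which shows no sign of pairing but cannot exclude it. No label gave a batch. The number of animals sets the precision. Scripts ran in Python 3.11.15 with pandas 2.3.3 and numpy 2.4.6, and figures were drawn with matplotlib 3.10.9.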

Additional observations from a re-analysis of the deposited data

How the results depend on the processing

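With 4 peaks in all, most values move by single calls. The stricter score, above 93.41, left 0 Hox peaks, so the differences between groups in peak count, share and covered sequence, those in Hoxa and Hoxb, and the differences between the sides of Hoxa and Hoxb all became 0. Equal-length lists brought the Hoxb values between groups and between sides to 0. Without 1 library at a time, the group difference ran from -1.17 to -0.167 in peak count, from -0.00307 to -0.000741 percentage points in share and from -0.557 to -0.192 kb in covered sequence. The Hoxb group difference ran from -0.500 to 0 and the difference between its sides from -0.200 to 0, being 0 without EYFP replicate 2. The log2 ratio of windows to flanks ran from -2.12 to -1.66, that to chromosomes 1 to 19 from -3.11 to -2.73, and that of Hoxd, whose counts were the same in every library and so could not move, was -1.58 (all with p = 0.0625, the smallest that 5 libraries allow by the exact sign-flip permutation). The ratio to flanks was -1.54 with shortened windows. At Hoxa it turned to -0.24 on equal-length lists and -0.33 with the stricter score, and was 0 with flanks of 2 widths. At Hoxb it was -1.65 on equal-length lists and -1.58 with the stricter score (p = 0.03125 for both, by the same exact permutation test). At Hoxc it was -1.63 with windows extended by 10 kb, -2.28 with flanks of 2 widths and 0 with shortened windows. Pseudocounts of 0.25 and 1, added after seeing the data, gave -2.39 and -1.39 for windows against flanks -3.48 and -2.34 against chromosomes 1 to 19, and -2.32 and -1.0 for Hoxd against its flanks. With the replicate number as a block, the difference in Hox peak count stayed at -0.667 (exact sign-flip permutation p = 0.75), with 0.25 the smallest possible, and no other call changed. The difference of median score percentile between groups was not run, since 1 cFos library had a Hox peak. Read depth limits every statement about a site without a call.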
